A study of Homo sapiens with 20 samples.

Results

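The sorting nexin (SNX) and vacuolar protein sorting (VPS) genes were taken as every gene whose symbol is SNX or VPS followed by digits and at most 1 letter, with antisense genes and pseudogenes left out. The rule found 64 genes, 30 SNX and 34 VPS genes, of 28278 genes in the FUBP1 RNA immunoprecipitation (RIP) table. Skipped exon events, in which an exon is either included between its neighbours or left out, were listed for 53 of them, over 202 distinct exons. The tables held 133 member events of 19792 after FUBP1 depletion, 195 of 32990 after U3 depletion and 46 of 7065 after FBL depletion.

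All libraries came from HepG2, a human liver cancer cell line, and the study asked how splicing and FUBP1 binding respond when FUBP1 or the machinery for 2′-O-methylation is depleted. Polyadenylated RNA was sequenced 48 h after siCtrl2, a control siRNA, or siFUBP1, an siRNA against the splicing factor FUBP1, with 3 libraries each. The same was done 72 h after GFP ASO, a control antisense oligonucleotide (ASO), or U3 ASO, which targets the small nucleolar RNA U3, again with 3 libraries each. FUBP1 RIP and input RNA were sequenced 48 h after siCtrl, a different control siRNA, or siFBL, an siRNA against the 2′-O-methyltransferase fibrillarin (FBL), with 2 libraries in each of the 4 groups and no poly(A) selection stated, and the input libraries served for splicing. Each depletion used 1 siRNA or 1 ASO, and no control library was shared between the 3 splicing comparisons.

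Sorting nexins carry a phox homology (PX) domain that binds phosphoinositide lipids, and many add a BAR domain that bends the membrane into tubules. With the VPS complexes they sort receptors on endosomes: retromer and retriever send cargo back to the Golgi or the plasma membrane, ESCRT complexes send it to lysosomes, and HOPS, CORVET, GARP and EARP tether the carriers to their targets. In hepatocytes these routes handle the receptors that take up ligands from blood.

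Junction reads numbered 2693397 to 4474350 per library in the siFUBP1 table, 11249641 to 13321799 in the U3 table and 910779 to 1142189 in the FBL table, so the last was the least precise. FUBP1 itself stood at 44.4, 56.0 and 50.3 RPM (length-scaled reads per 1000000 junction reads) in siCtrl2 and at 8.26, 10.1 and 4.08 in siFUBP1. It was also lower in U3 ASO (15.3, 16.7 and 17.9) than in GFP ASO (25.0, 22.0 and 21.9), and its mean normalised count in the RIP table went from 14257 in siCtrl to 8689 after siFBL, or 0.609 times the control, where the median of all genes was 0.872. Which libraries entered that count is not stated, and it may include the RIP, so it may not reflect the RNA level alone. The part of FUBP1 in the U3 and RIP results was not tested. The mean normalised count of FBL in the RIP table, which has the same limit, was 1034 in siCtrl and 164 in siFBL, and U3 RNA was not analysed here. The 8 hepatocyte markers, among them ALB and APOB, had mean normalised counts of 3540 to 1130000 in siCtrl, against 8.01 to 64.8 for PTPRC, PECAM1 and COL1A1, which mark other cell types. No 2 libraries of a table had the same reads at more than 3.34% of its events.

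Most member exons were included in nearly every transcript. The inclusion level of an exon in a library runs from 0 to 1 and is the part of its junction reads that include it, after division by the effective length of each form. Where junction reads averaged 10 or more per library, the median inclusion level in the controls was 0.986 of 114 events in siCtrl2, 0.993 of 186 in GFP ASO and 0.983 of 30 in the siCtrl input. All events tested had medians of 0.976, 0.989 and 0.949 in the same 3 groups. Of the 202 member exons, 189 were coding in at least 1 annotated transcript, and 82 had a length that is a multiple of 3. All 192 member exons tested were preceded by AG and followed by GT or GC in hg38, as were 99.8% of all 29248 exons tested. The 30 intron bases before a member exon held a median of 43.3% T, against 40% over all exons tested, and the exons themselves had a median GC content of 42.5% against 48.5%. No test was made of these differences.

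The sequences shown here belong to the 3 member exons with the smallest p-values after FUBP1 depletion, and give the intron bases that a 3′ splice site is read from. Each was read from hg38 on the minus strand, which is the strand of the gene, with 60 intron bases before and 30 bases after the marked part. For VPS26C (chr21:37233332-37233502) and SNX5 (chr20:17955335-17955535), the skipped exon is in capitals. For VPS54 (chr2:63981822-63981947), the capitals mark the 36 bases between 2 alternative starts of the same exon, each preceded by AG.
VPS26C: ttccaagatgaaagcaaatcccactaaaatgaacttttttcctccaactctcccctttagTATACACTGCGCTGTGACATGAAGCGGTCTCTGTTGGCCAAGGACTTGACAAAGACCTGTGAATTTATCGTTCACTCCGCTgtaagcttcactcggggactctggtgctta
SNX5: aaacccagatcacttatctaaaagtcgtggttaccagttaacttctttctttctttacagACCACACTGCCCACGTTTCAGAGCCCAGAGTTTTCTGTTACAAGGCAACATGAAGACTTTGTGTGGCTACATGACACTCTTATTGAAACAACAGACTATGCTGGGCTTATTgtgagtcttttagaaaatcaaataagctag
VPS54: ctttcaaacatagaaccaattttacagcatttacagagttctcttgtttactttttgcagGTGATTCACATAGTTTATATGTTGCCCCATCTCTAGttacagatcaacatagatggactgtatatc

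After FUBP1 depletion, the member exon with the smallest p lay in VPS26C, a subunit of retriever, which recycles receptors from endosomes to the plasma membrane. It is exon 4 of 8 of the canonical transcript (chr21:37233362-37233442), coding, and 81 bases long, which is 27 codons. Skipping reads made up 2 of 53, 1 of 71 and 4 of 49 junction reads in the siCtrl2 libraries and 43 of 102, 16 of 56 and 16 of 70 in the siFUBP1 libraries. The inclusion levels were 0.943, 0.978 and 0.879 in siCtrl2 and 0.471, 0.618 and 0.686 in siFUBP1, and the groups did not overlap. The mean was 0.934 ± 0.0502 against 0.592 ± 0.110 (SD, n = 3 each), a difference of -0.342. The quasi-binomial test across all events gave an unadjusted p of 0.00197 and a Benjamini-Hochberg adjusted p of 0.390, so the event was not called at 0.1. Leaving out any 1 library gave differences from -0.389 to -0.281. In the U3 table the same exon had levels of 0.926, 0.886 and 0.879 in GFP ASO and 0.988, 0.939 and 0.934 in U3 ASO, which did not overlap either and differed by 0.0571 (unadjusted p = 0.286 in the same test across all events). The exon was not listed in the FBL table.

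VPS54, the subunit that places the GARP tether at the trans-Golgi network, came next with exon 3, which starts at either of 2 acceptors 36 bases apart and is 242 or 206 bases long. Both forms share their skipping reads and are therefore not independent. For the 206-base form (chr2:63981646-63981851), skipping reads were 1 of 292, 0 of 405 and 0 of 343 in siCtrl2 and 24 of 285, 8 of 356 and 1 of 226 in siFUBP1. Mean inclusion was 0.998 ± 0.00394 against 0.931 ± 0.0765 (SD, n = 3 each), a difference of -0.0671 with an unadjusted p of 0.00567 (adjusted p = 0.624, quasi-binomial test across all events). The groups did not overlap, but 1 siFUBP1 library gave 24 of the 33 skipping reads of that group. The longer form (chr2:63981646-63981887) differed by -0.120 (unadjusted p = 0.0117 across all events), with overlapping groups.

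The third was exon 3 of 13 of SNX5 (chr20:17955365-17955475), which encodes part of the retrieval coat that returns the mannose 6-phosphate receptor from endosomes to the Golgi. This coding exon of 111 bases is 37 codons long and had about 1690 junction reads per library, the deepest coverage among these 3 genes. Skipping reads were 39 of 1764, 106 of 2347 and 27 of 1750 in siCtrl2 and 116 of 1567, 62 of 1291 and 59 of 1412 in siFUBP1. The inclusion levels were 0.962, 0.924 and 0.973 against 0.878, 0.919 and 0.929, so that 1 siFUBP1 library lay within the siCtrl2 range. The means of 0.953 ± 0.0260 and 0.909 ± 0.0274 (SD, n = 3 each) differed by -0.0444, with an unadjusted p of 0.00702 and an adjusted p of 0.651 in the quasi-binomial test across all events. The plot of inclusion by library sets these exons beside the other 2 depletions.

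**Figure D1:**
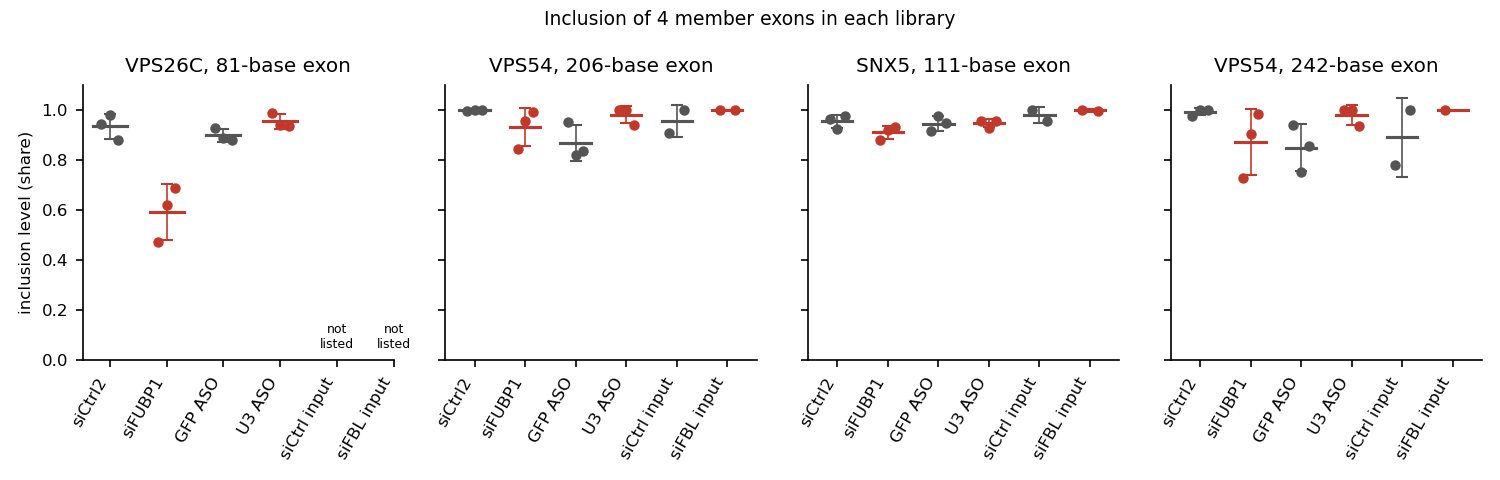
Inclusion level (share of 1, vertical axis) of 4 member exon events in each library of the 6 groups, with points for libraries, lines for the mean and bars for the SD (none where a group has 1 value). Grey marks controls and red depletions. VPS26C in siFUBP1, at 0.471, 0.618 and 0.686, lies below every siCtrl2 library, and both VPS54 forms have their lower levels in siFUBP1 and in GFP ASO.

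No member event was called after FUBP1 depletion (0 of 114), where 0.197% of all 16213 events tested were. At an unadjusted p under 0.05 there were 4 member events, all with lower inclusion, namely those of VPS26C, SNX5 and both VPS54 forms. That is 3.51% of member events against 4.60% of all events tested. The groups did not overlap for 4 member events, 3.51% against 5.05%, so neither count stood above the background. Inclusion was lower in siFUBP1 for 70 member events and higher for 44, against 8419 and 7791 of all events tested. The median difference was -0.0120 against -0.00139 over all events tested. Under limma on the log2 odds of inclusion, 1 member event was called, VPS8 exon 25 (chr3:184900921-184900972), with no skipping read among 93 in siCtrl2 and 2 of 16 in siFUBP1. The share of all events called by that test is not given here, so this count was not set against a background.

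In the next 4 events in order of p, the skipping reads came from 1 or 2 libraries of a group. SNX25, a sorting nexin with a domain related to regulators of G protein signalling, had exon 11 (chr4:185339379-185339510) with skipping reads of 0 of 48, 0 of 110 and 0 of 73 in siCtrl2 and 9 of 106, 5 of 57 and 0 of 64 in siFUBP1, a difference of -0.101 (unadjusted p = 0.0586 across all events). SNX12, a close relative of the retromer adaptor SNX3, differed by 0.134 through 16 skipping reads in 1 siCtrl2 library. SNX17, the retriever adaptor for integrins, differed by -0.0771 at exon 3 (chr2:27372623-27372740), with 14 of 15 skipping reads in 1 siFUBP1 library. SNX16 at exon 5 differed by -0.181, with 11 skipping reads in 2 of the 3 siFUBP1 libraries and none in siCtrl2. Further down the order, VPS35, the backbone of retromer, had lower inclusion in all 3 siFUBP1 libraries than in any siCtrl2 library at exon 13 (chr16:46668930-46669052), at 1, 0.963 and 0.991 against 0.903, 0.897 and 0.952, with an unadjusted p of 0.0922 across all events.

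SNX5 had 8 events tested in this table, more than all but SNX17 and VPS37A among the members, and they did not share 1 direction. Exon 4 (chr20:17953996-17954117) had a mean inclusion level of 0.975 ± 0.00286 in siCtrl2 that compared with 0.988 ± 0.00959 in siFUBP1 (SD, n = 3 each), a difference of 0.0132 in the direction opposite to that of exon 3. Exon 5 (chr20:17952587-17952710) had 0.988 ± 0.0209 and 0.939 ± 0.0368, a difference of -0.0493. Over the 8 events the differences ran from -0.0493 to 0.0775, and the events overlap in their junctions.

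After U3 depletion, again no member event was called (0 of 186), against 0.226% of 30110 events tested. An unadjusted p under 0.05 was reached by 8 member events, 4.30% against 4.16%, of which 3 had lower and 5 higher inclusion, and limma on the log2 odds called none. The groups did not overlap for 9, 4.84% against 6.03%. Inclusion was lower in U3 ASO for 112 member events and higher for 74, against 17816 and 12287 of all events tested. The median difference was -0.00551 against -0.00355. The smallest p-values were those of the VPS54 exon already described, here with higher inclusion. The 242-base form had levels of 0.938, 0.752 and 0.854 in GFP ASO and 1, 1 and 0.933 in U3 ASO, a difference of 0.130 with an unadjusted p of 0.00755 and an adjusted p of 0.812 in the quasi-binomial test across all events. The 206-base form differed by 0.113. Skipping reads of this exon were 1 in all siCtrl2 libraries together and 57 in the GFP ASO libraries, so the 2 control groups themselves stood at different levels, with 0.992 ± 0.0146 and 0.848 ± 0.0934 (SD, n = 3 each) for the longer form.

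VPS51, which GARP and EARP share, had no skipping read among 1021 at exon 2 (chr11:65096998-65097127) in GFP ASO, which allows a skipping share of up to 0.294%. In U3 ASO its skipping reads were 19 of 342, 2 of 351 and 9 of 461, with no overlap between the groups and a difference of -0.0486 (unadjusted p = 0.0192 across all events). SNX7, an SNX-BAR partner of SNX4, went the other way at exon 4 (chr1:98691535-98691699), with 4 of 195, 4 of 352 and 8 of 210 skipping reads in GFP ASO and none of 1044 in U3 ASO, which allows up to 0.287%. Its inclusion differed by 0.0454 without overlap (unadjusted p = 0.0457 across all events). These limits and all read shares cover counting error only.

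VPS26A, the cargo-binding arm of retromer, had 50 of its 59 skipping reads at exon 3 (chr10:69155812-69155887) in 1 U3 ASO library, for a difference of -0.0817. VPS36 of ESCRT-II differed by 0.203 at exon 12, with 14 of its 18 skipping reads in 1 GFP ASO library. SNX3 at exon 3, the retromer adaptor for the Wnt carrier, differed by only 0.00790 at 1350 junction reads per library. Of the 15 SNX5 events tested, exon 7 had the smallest p (0.0486, unadjusted across all events) at a difference of -0.00273, from 19 skipping reads in U3 ASO and none in GFP ASO. Exon 3 of SNX5, with the smallest p of that gene after FUBP1 depletion, stood at 0.913, 0.974 and 0.945 in GFP ASO and 0.955, 0.927 and 0.956 in U3 ASO, a difference of 0.00207. A partly coding SNX5 exon that is not in the canonical transcript (chr20:17968375-17968457) had 0.970, 0.942 and 1 against 0.942, 0.932 and 0.931, without overlap, and differed by -0.0359. The other 12 SNX5 events had unadjusted p-values from 0.194 to 0.920 and differences from -0.0665 to 0.00231.

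After FBL depletion, 0 of 30 member events were called, nor was any of the 5218 events tested (0.00%). No member event had an unadjusted p under 0.05, which 2.28% of all events had, and limma on the log2 odds called no member. The groups of 2 did not overlap for 2 member events, 6.67% against 13.8%. Inclusion was lower in siFBL for 16 member events and higher for 14, against 2716 and 2495 of all events tested. The smallest p was that of SNX5 exon 4, with 0 of 561 and 0 of 493 skipping reads in the siCtrl inputs and 0 of 166 and 12 of 306 in the siFBL inputs, a difference of -0.0346 (unadjusted p = 0.0834 across all events). SNX6, which pairs with SNX1 or SNX2 as SNX5 does, differed by -0.206 at exon 4 through 12 skipping reads in 1 siFBL library. The same library gave all skipping reads at SNX17 exon 13 (0 of 76 and 10 of 23). SNX5 exon 3 stood at 1 and 0.955 in siCtrl and 1 and 0.993 in siFBL. Of the remaining events with the smallest p-values, VPS37A exon 2, SNX25 exon 14 and SNX3 exon 3, at -0.284, -0.205 and -0.0777, had skipping reads in 1 siFBL library each, and VPS37C exon 3 and SNX4 exon 2, at 0.208 and 0.0528, in 1 siCtrl library each.

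Among the 23 member events tested in all 3 tables, 9 had a mean inclusion level between 0.05 and 0.95 over the 3 control groups, in SNX6, SNX10, SNX14, SNX15, SNX25, VPS53 and VPS54. SNX14, a sorting nexin of the endoplasmic reticulum linked to lipid droplets, held 2 of these. Its 27-base exon 16 (chr6:85538838-85538864) was included at 0.114 ± 0.0594 in siCtrl2, 0.268 ± 0.0596 in GFP ASO (SD, n = 3 each) and 0.175 ± 0.0993 in the siCtrl input (SD, n = 2). The depletions stood at 0.0923, 0.185 and 0.221. An 88-base exon of the same gene ranged from 0.262 to 0.715 between the siCtrl2 libraries alone. SNX10, which is needed for acidification in osteoclasts, included a 121-base exon (chr7:26357007-26357127) rarely, at 0.0519, 0.0682 and 0.0777 in the 3 control groups. SNX15, SNX6, VPS53 and SNX25 had mean control inclusion over the 3 tables of 0.928, 0.915, 0.784 and 0.893, and VPS53 of GARP varied most between control groups, from 0.566 in the siCtrl input to 1 in siCtrl2. None of these 9 events except the VPS54 forms had an unadjusted p under 0.05 in any table.

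The junction reads also gave a level for each gene, taken from the event of the gene with the most reads and given in the same RPM, and compared with limma on the log2 scale after adding 0.5 reads. The level is a share of all junction reads, so less of an RNA per cell cannot be told apart from fewer cells that hold it or from more of other RNAs. After FUBP1 depletion, 4 of 39 member genes were called and all 4 fell, where 4.12% of 6266 genes tested fell and 3.85% rose. SNX4, an SNX-BAR protein of recycling endosomes, had 32.5, 32.8 and 30.9 RPM in siCtrl2 and 19.3, 19.9 and 19.8 in siFUBP1. The groups did not overlap, with a difference of -0.70 ± 0.21 (SE) on the log2 scale and an adjusted p of 0.0584 from limma, and the second event of SNX4 differed by -1.13.

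SNX5 was the most abundant of the 4, at 423, 375 and 393 in siCtrl2 and 311, 281 and 375 RPM in siFUBP1. Its level fell by 0.31 ± 0.10 (SE) on the log2 scale (limma, adjusted p = 0.0858), a call lost with median-of-ratios scaling (-0.27, adjusted p = 0.161), which left 3 members called, and the highest siFUBP1 library lay just under the lowest siCtrl2 library. VPS35 had 32.3, 47.0 and 41.1 against 31.6, 21.1 and 19.7 at exon 6, a difference of -0.75 ± 0.22 (SE) on the log2 scale (limma, adjusted p = 0.0518). Its other event, at exon 13, differed by 0.09, so that the 2 events of VPS35 did not move together. VPS8, the CORVET subunit, had 5.89, 7.12 and 6.58 against 1.46, 0.629 and 1.93 at exon 25, a difference of -2.27 ± 0.70 (SE) on the log2 scale (limma, adjusted p = 0.0613) at a mean of 18.2 reads per library. At VPS8 exon 43 the difference was 0.75, and without siCtrl2 library 2, when that exon had the most reads, the value for the gene turned to 0.62. With the mean over all events of a gene in place of 1 event, 2 members were called. The calls were close to the threshold, and that of SNX4 was lost without any 1 of the 6 libraries, although its difference stayed between -0.73 and -0.68.

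**Figure D2:**
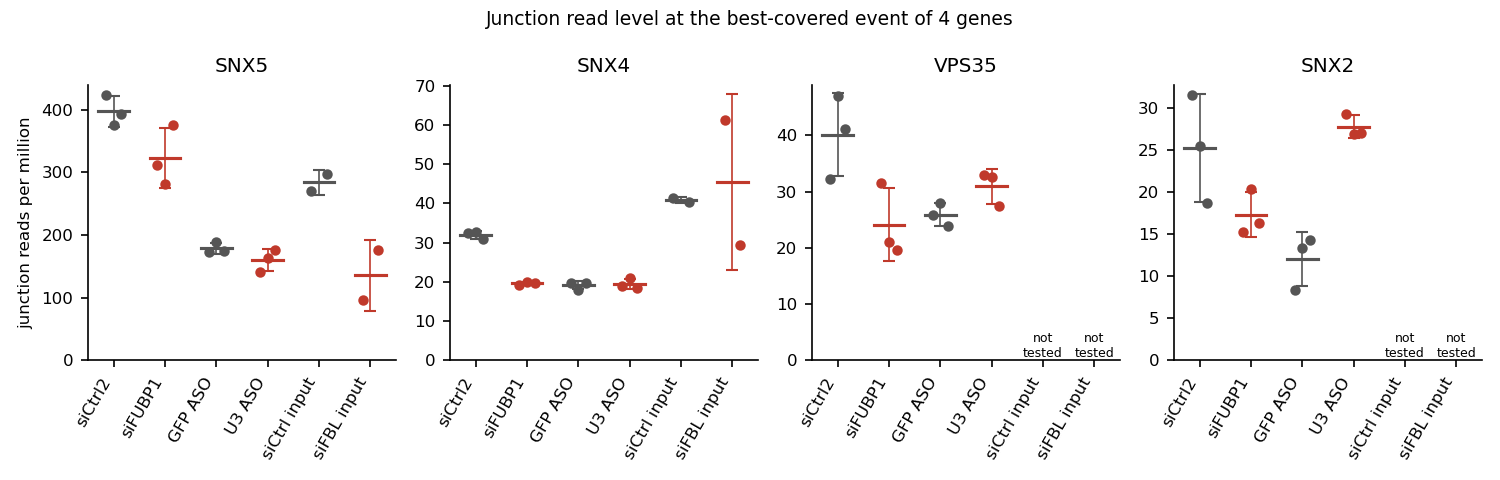
Junction RPM (vertical axis, from 0) at the best-covered event of SNX5, SNX4, VPS35 and SNX2 in each library of the 6 groups, with the mean and SD. Grey marks controls and red depletions. SNX4 falls from 32.5, 32.8 and 30.9 in siCtrl2 to 19.3, 19.9 and 19.8 in siFUBP1, and SNX2 rises from 8.41, 13.3 and 14.4 in GFP ASO to 29.4, 26.9 and 27.1 in U3 ASO; the event used can differ between tables.

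After U3 depletion, 18 of 51 member genes rose and none fell when reads were scaled to the total, where 30.2% of 8456 genes tested rose and 8.92% fell. This scaling moved the median of all genes by 0.27 on the log2 scale, against 0.03 with median-of-ratios scaling. Under the latter, 8 members rose (15.0% of all genes) and 1 fell (15.9%). The log2 differences that follow for this depletion use it unless stated. RPM values and the overlap of groups remain on scaling to the total, so the RPM do not give these differences directly. In the same libraries the summed level of the 7 hepatocyte markers with events was 14300 to 14600 RPM in GFP ASO and 9730 to 9870 in U3 ASO, with a lower mean for 6 of the 7 and none at 0, and its part in the member levels was not tested. The members that rose under both scalings were SNX2, SNX30, VPS72, SNX24, SNX8, VPS16, VPS13C and VPS37B.

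SNX2, an SNX-BAR protein of the retrieval coat, went from 8.41, 13.3 and 14.4 RPM in GFP ASO to 29.4, 26.9 and 27.1 in U3 ASO, without overlap. Its difference was 1.00 ± 0.18 (SE, log2), with an adjusted p of 0.000193 from limma. SNX30, the partner of SNX4, went from 7.13, 6.14 and 4.74 to 12.9, 13.2 and 10.7 (0.79 ± 0.23, SE, log2; limma, adjusted p = 0.0118). VPS13C, a bridge for lipids between organelles, rose by 1.03 ± 0.37 (SE, log2; limma, adjusted p = 0.0447) from a low level of 3.02, 3.55 and 1.36. Among the members that rose under both scalings, VPS13C alone lost its call under scaling to the total when 1 library was left out. VPS72, a nuclear chromatin subunit that shares only its name with the endosomal genes, rose by 0.66 ± 0.22. SNX8, SNX24, VPS16 and VPS37B rose by 0.49 to 0.72 on the same scale. SNX2, VPS72, VPS16 and VPS37B had only 1 event each here, so no other event of these genes could be compared. SNX30 and SNX8 had 3 events each, SNX24 had 2 and VPS13C had 8, and the levels at their other events are not given here. Another 10 members (SNX1, SNX3, SNX7, SNX9, SNX21, VPS11, VPS33A, VPS37A, VPS39 and VPS54) were called higher only with scaling to the total.

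The member that fell was SNX5, at 172, 189 and 175 RPM in GFP ASO and 141, 163 and 176 in U3 ASO. These values are from 1 of its 15 events, and the levels at the others are not given here. Its difference was -0.41 ± 0.08 (SE, log2; limma, adjusted p = 0.000326) under median-of-ratios scaling and -0.16 ± 0.08 (limma, adjusted p = 0.112) under scaling to the total, where it was not called. SNX2 and SNX5, which sit together in the same coat, thus moved in opposite directions under median-of-ratios scaling, while SNX1 differed by 0.24 ± 0.16 and SNX6 by -0.03 ± 0.12 without a call.

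In the FBL inputs, 1 of 14 member genes was called, again SNX5, where 1.58% of 3098 genes tested fell. Its level was 270 and 298 RPM in siCtrl and 95.9 and 176 in siFBL, without overlap. The difference was -1.12 ± 0.27 (SE, log2; limma, adjusted p = 0.0443), and -0.94 ± 0.27 with median-of-ratios scaling (limma, adjusted p = 0.121), where it was not called. The call was also lost without siCtrl library 1, siCtrl library 2 or siFBL library 1, at differences from -1.56 to -0.69 over all removals. The median of all genes moved by -0.17 under scaling to the total and by 0.00 under the other. Of the other 3 SNX5 events in this table, exons 2 and 3 differed by -1.07 and -1.21 and exon 5 by -0.28. Across the siFUBP1, U3 and siFBL tables the difference of SNX5 under median-of-ratios scaling was -0.27, -0.41 and -0.94, of which the U3 value was called.

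**Figure D3:**
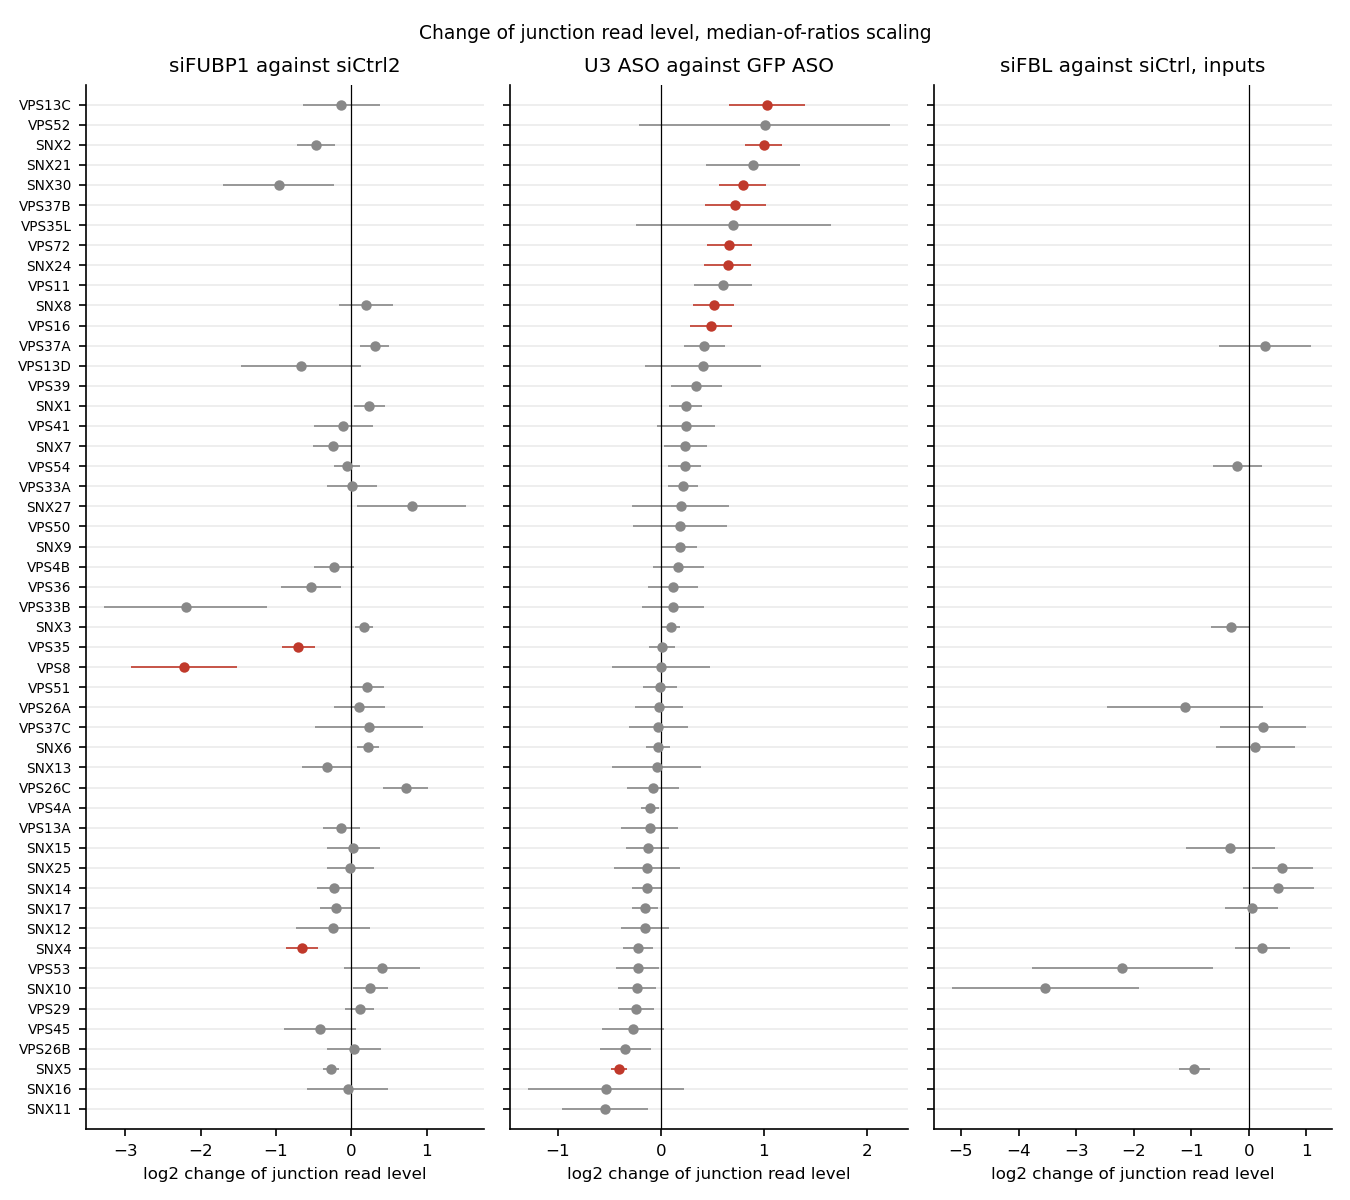
Difference of junction read level (depletion minus control, log2, median-of-ratios scaling, horizontal axes of unequal range) for the member genes in the 3 tables, ordered by the U3 value, with bars for the SE. Red marks an adjusted p under 0.1 in limma. SNX5 lies below 0 in all 3 panels, at -0.27, -0.41 and -0.94, and is red in the U3 panel.

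SNX5 also carries a small RNA of the class that guides FBL. SNORD17, a C/D box small nucleolar RNA, lies on the minus strand in the intron before SNX5 exon 2, at chr20:17962710-17962946, 5428 bases downstream of that non-canonical exon and 5672 bases upstream of exon 2. Its sequence in hg38 is shown because C/D box RNAs are bound by FBL through the short boxes near their ends, and the capitals mark the first TGATGA (C box) and the last CTGA (D box) in it. The strand and position make it an intronic RNA of SNX5, and neither its level nor its part in the SNX5 values was tested. SNX5 was not the only member with an annotated small RNA. VPS13D (SNORA59A) and VPS29 (ENSG00000202335) hold one on the strand of the gene, and SNX29 (ENSG00000238685) on the other strand. The class of these RNAs was not examined, and neither VPS13D nor VPS29 was called by level after U3 depletion.
SNORD17: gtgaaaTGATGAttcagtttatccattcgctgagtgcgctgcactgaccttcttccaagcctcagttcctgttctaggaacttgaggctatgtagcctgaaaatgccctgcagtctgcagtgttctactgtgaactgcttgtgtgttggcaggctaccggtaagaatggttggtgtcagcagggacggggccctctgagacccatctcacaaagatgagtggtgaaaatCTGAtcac

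FUBP1 RIP gave for each gene the log2 enrichment of the immunoprecipitate over input, with its standard error, and no value per library. Of the 64 members, 60 had a mean normalised count of at least 10 in both conditions. SNX15 was listed at 0 and SNX20, SNX31 and SNX32 fell under the minimum. In siCtrl, 33 members were enriched and 23 lay below input by a Wald test on the deposited values (adjusted p under 0.1), against 41.1% and 38.9% of 14242 genes. The median member enrichment was 0.57, against 0.08 over all genes tested.

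The highest enrichments were those of SNX16, a sorting nexin of early and late endosomes, at 3.68 ± 0.23 (log2 ± SE), and VPS37A of ESCRT-I at 2.85 ± 0.15. SNX4 at 2.76 ± 0.11, SNX25 at 2.68 ± 0.07 and VPS36 at 2.62 ± 0.13 followed, and neighbours within this group of 3 differed by less than their errors. At the other end stood VPS25, the ESCRT-II partner of VPS36, at -3.34 ± 0.29, VPS51 at -3.10 ± 0.17, the shared HOPS and CORVET subunit VPS18 at -2.88 ± 0.28, VPS28 of ESCRT-I at -2.86 ± 0.40 and SNX22 at -2.78 ± 0.52. Proteins of 1 complex were thus encoded by transcripts at both ends of the range.

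By role, all 4 tested SNX-BAR genes of the retrieval coat were enriched, from 0.46 for SNX1 over SNX2 (0.59) and SNX5 (1.12) to 1.24 for SNX6. The retromer core split between its 2 VPS26 copies, with VPS26A at 2.02 ± 0.20 and VPS26B at -1.47 ± 0.19, while VPS29 stood at 0.94 ± 0.33 and VPS35 at 0.40 ± 0.10. All 4 VPS13 genes were enriched, from 0.28 to 2.43. A group of 8 genes held HOPS and CORVET subunits and VPS33B, a homologue of the subunit VPS33A. Only VPS8 (1.26) and VPS41 (0.60) of these were enriched, and the other 6 lay below input. The ATPases VPS4A and VPS4B, which disassemble ESCRT-III, stood at -2.06 ± 0.11 and 2.61 ± 0.14. The 3 genes with the exons shown above were enriched, VPS26C at 1.29 ± 0.22, VPS54 at 1.39 ± 0.07 and SNX5 at 1.12 ± 0.05.

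Enrichment followed the base composition of the transcripts. All 14 members whose canonical transcript had a GC content under 40% lay above 0, with a median of 2.12, as did all 11 between 40% and 45% (median 1.26). Between 45% and 50%, 9 of 11 did (median 0.94), and between 50% and 55%, 1 of 11 (median -1.66). From 55%, none of 13 did, with a median of -2.33. All genes tested in the same 5 bins had medians of 2.25, 1.25, 0.28, -0.86 and -2.22. Across the 60 members, Spearman's rho between enrichment and GC content was -0.84, and it was -0.77 across 13661 genes. With the genomic length of the gene the values were 0.60 and 0.41. These are descriptions across genes, which share libraries and are not independent replicates. SNX25, at 47.2% GC, had the highest enrichment of the 11 members between 45% and 50%.

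**Figure D4:**
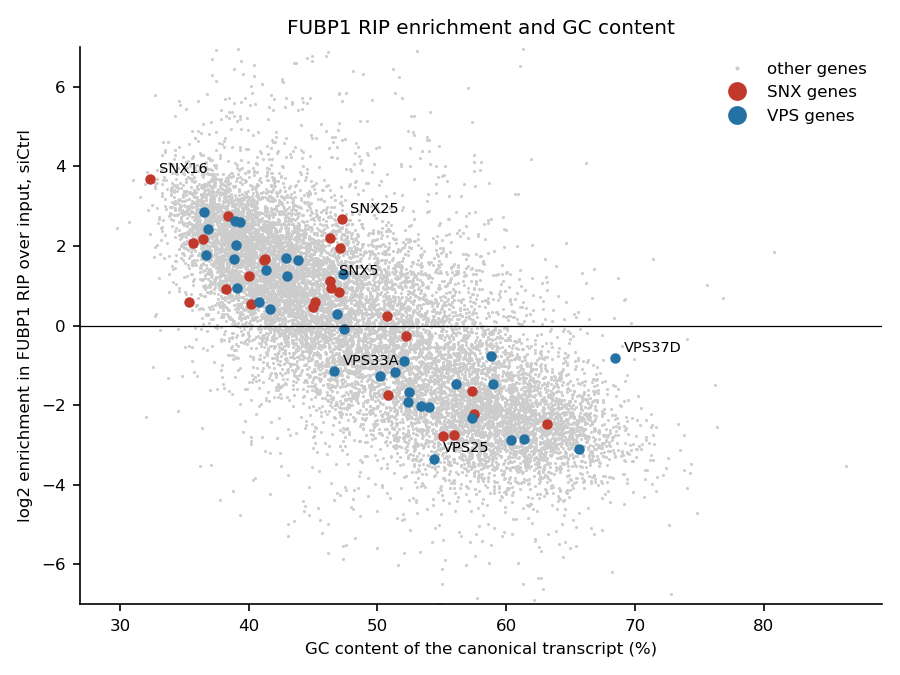
Log2 enrichment in FUBP1 RIP over input in siCtrl (vertical axis) against the GC content of the canonical transcript (horizontal axis, %) for SNX genes (red), VPS genes (blue) and all other genes tested (grey, with 34 genes outside the axis range of -7 to 7). All members lie above 0 under 45% GC and below 0 from 55%.

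After FBL depletion, Spearman's rho between the enrichments of both conditions was 0.98 across the 60 members and 0.91 across all genes. The enrichment was called lower for 7 members and higher for 1, against 6.64% and 5.36% of the 14242 genes, and the median difference was 0.04. VPS37A had 2.85 ± 0.15 in siCtrl and 2.04 ± 0.12 in siFBL, a difference of -0.82 ± 0.20 (Wald test on the deposited log2 values, adjusted p = 0.000954 over all genes). SNX25 fell by 0.44 (adjusted p = 0.00114 in the same test) and SNX5 by 0.26 (adjusted p = 0.00310). SNX5 had 1.12 ± 0.05 in siCtrl and 0.86 ± 0.05 in siFBL, the smallest error of all members.

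The other members called lower were SNX27, the adaptor that couples retromer to recycling of receptors with PDZ ligands (-0.51 ± 0.19), SNX7 (-0.70 ± 0.26), SNX6 (-0.40 ± 0.16) and VPS37D (-1.38 ± 0.53), with adjusted p of 0.0648 to 0.0907 in the Wald test over all genes. SNX16 was called higher, from 3.68 to 4.54 (0.86 ± 0.33, adjusted p = 0.0839). With no minimum count, the calls of SNX16, SNX6 and VPS37D were lost and 5 members were called. Within the retrieval coat, SNX5 and SNX6 were called lower, while SNX1 (0.14 ± 0.13) and SNX2 (-0.11 ± 0.21) were not called. VPS26C (-0.41 ± 0.28) and VPS54 (0.06 ± 0.11) were not called either. Across the 60 members the difference had a Spearman's rho of -0.50 with the siCtrl enrichment it is computed from and of 0.38 with GC content, against -0.53 and 0.37 of all genes, and the part of either in the calls was not tested.

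The mean normalised count is given once per condition. Which libraries entered it is not stated, so it may pool RIP and input. For SNX5 it was 17735 in siCtrl against 9443 after siFBL, which gives a ratio of 0.532, where the median ratio of the members was 0.886. SNX30 had the lowest ratio, 0.397, with counts of 3789 and 1506, while its enrichment differed by -0.14 ± 0.16 and was not called. These counts have no error across libraries and were not tested.

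**Figure D5:**
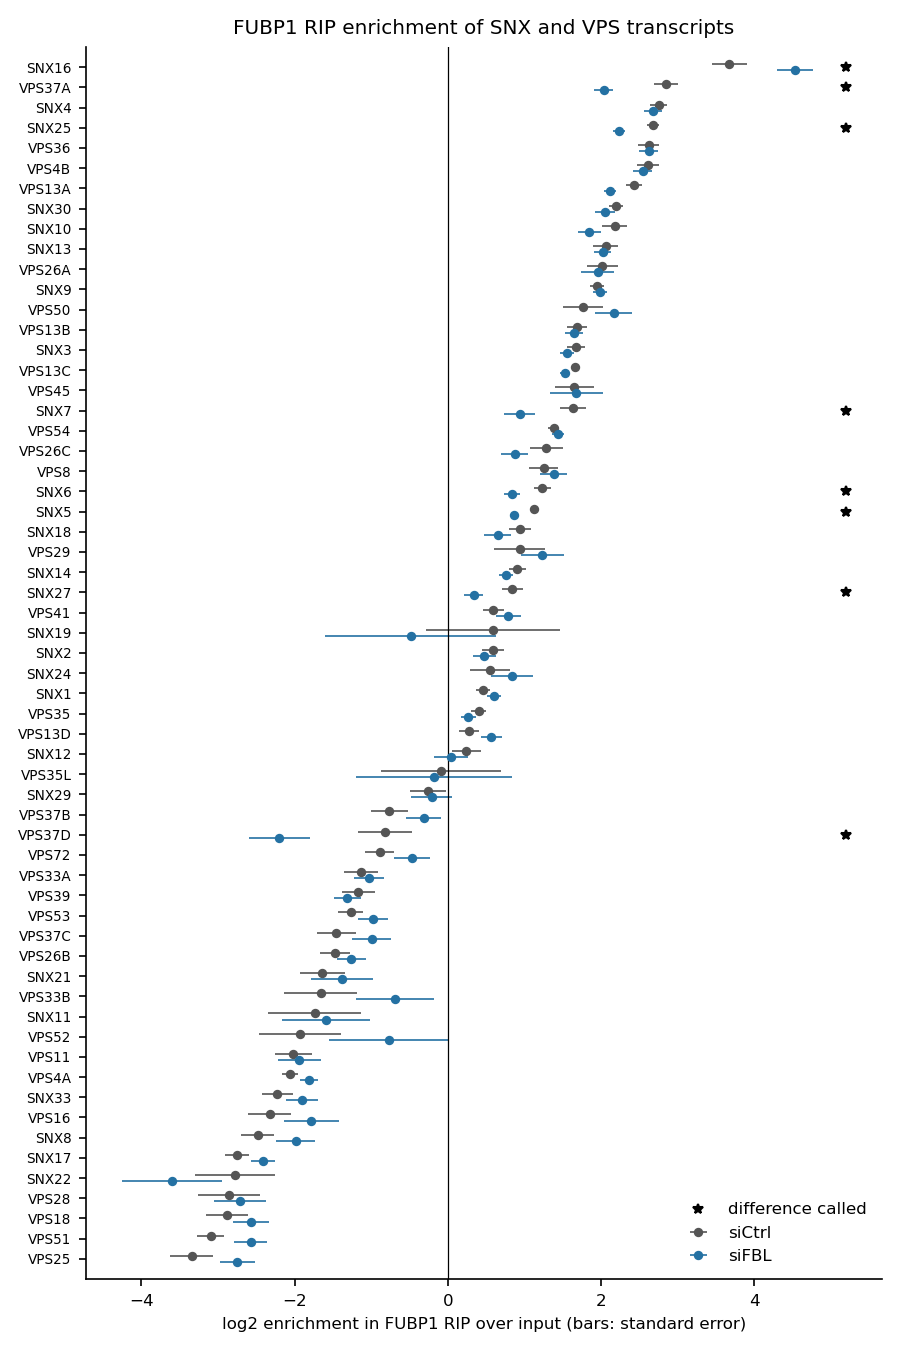
Log2 enrichment in FUBP1 RIP over input (horizontal axis, bars for the SE) of the 60 members in siCtrl (grey) and siFBL (blue), ordered by siCtrl, with a star where the difference was called. The values run from -3.34 for VPS25 to 3.68 for SNX16 in siCtrl, and 7 of the 8 starred genes have the lower value in siFBL.

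Genes of the same pathway that are not members (the WASH and CCC complexes, other ESCRT subunits, class III phosphoinositide kinase, Rab regulators and cargo receptors) gave 0 of 122 events called after FUBP1 depletion (all events, 0.197%), 1 of 217 after U3 depletion (0.226%) and 0 of 40 after FBL depletion (0.00%). At an unadjusted p under 0.05 there were 8, 14 and 0, which is 6.56%, 6.45% and 0.0%. All events tested had 4.60%, 4.16% and 2.28%. The event called was in RAB5C, a Rab of early endosomes (chr17:42137762-42137878), whose inclusion rose from 0.0188 ± 0.0142 to 0.0498 ± 0.00912 (SD, n = 3 each; adjusted p = 0.0537, quasi-binomial test across all events with dispersion moderated by limma). TBC1D5, which inactivates Rab7 on retromer, had the largest difference among the 3 smallest p-values after FUBP1 depletion, 0.962 ± 0.0667 against 0.496 ± 0.140 at chr3:17623849-17623913, and was not called (same test, adjusted p = 0.812). TFRC and PDCD6IP, the other 2, differed by -0.0148 and -0.0442. After U3 depletion the cargo receptors LRP1 and SORL1 followed RAB5C at 0.0328 and -0.120, and after FBL depletion LRP1 and CHMP3 were among the smallest p-values at -0.0562 and 0.121, none of them called.

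By level, 4 partners rose and 6 fell of 47 after FUBP1 depletion, against 3.85% and 4.12% of all genes tested. RAB7A, the Rab of late endosomes that recruits retromer, rose from 78.8 ± 6.72 to 167 ± 8.16 RPM (SD, n = 3 each), while CAPZA1, an actin capping subunit of WASH, fell from 73.5 ± 14.5 to 33.1 ± 4.86, with limma adjusted p of 2.83e-06 and 2.80e-04. After U3 depletion, 16 of 56 rose and 5 fell under median-of-ratios scaling, against 15.0% and 15.9% of all genes. Under scaling to the total, 31 rose and 1 fell, against 30.2% and 8.92%, and LRP1, IGF2R and RAB7A, with the smallest p-values, differed by 1.21, 0.82 and 0.72 (log2). None of 24 partners was called in the FBL inputs by limma, with 4 at an unadjusted p under 0.05, as had 363 of 3098 genes tested. The smallest were those of the ESCRT genes CHMP1A (-1.76, log2), CHMP7 (-1.82) and HGS (2.33), with limma adjusted p of 0.170, 0.307 and 0.363. HGS had 8.88 ± 10.3 RPM in siCtrl and 35.5 ± 27.9 in siFBL (SD, n = 2 each), so its libraries varied widely. In the RIP, 30 of 63 partners were enriched and 25 lay below input, and 5 were called lower and 4 higher after FBL depletion, where all genes had 41.1%, 38.9%, 6.64% and 5.36%.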

How the data were processed

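RNA of HepG2 cells was sequenced in the groups described above. Per the labels and the study's methods, the authors trimmed adapters with cutadapt, mapped reads to hg38 with HISAT2, counted genes (featureCounts in the labels, HTSeq in the methods), compared RIP with input in DESeq2 and listed exon events with rMATS from junction reads; versions are not given in the sources used here. The deposited junction tables hold lists of inclusion and skipping junction read counts for each library as text, with the effective length of each form as a score. The deposited RIP table holds the mean normalised count as a score and the log2 enrichment with its standard error for each condition, which are the authors' own DESeq2 estimates and were used because the table has no value per library. Its p-values, and the p-values, FDR, inclusion differences and 6 columns of inclusion levels of the junction tables, were not used.

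Where junction reads averaged 10 or more per library, events were compared by a quasi-binomial model with dispersion moderated across events (limma 3.58.1, R 4.3.3), and levels by limma on log2 RPM after adding 0.5 reads. RIP values were tested by a two-sided Wald test where the mean normalised count reached 10 in both conditions, leaving out 250 genes with an enrichment of exactly 0. Adjusted p-values are Benjamini-Hochberg over all features of a table, called under 0.1, and measure only the spread between these libraries. Exons were placed on GENCODE 44. The members and lists were chosen with earlier results of these data known. Named were the called members, the 8 events of smallest p per table, all SNX5 events, events tested in all 3 tables with intermediate inclusion, the 5 highest and lowest RIP enrichments, the 5 largest RIP differences over their error, and 3 pathway partners per table, of which 1 gene is not reported here. The tests were checked on simulated data. Alternatives were other filters, scalings and tests, and leaving out each library.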

Additional observations from a re-analysis of the deposited data

How the results depend on the processing

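The calls of members by event, level and RIP were recomputed under the alternatives that applied to each, changing 1 choice at a time. For the RIP these were other minimum counts and setting values against the median of all genes tested, with no library left out. For pathway partners only the scaling of levels was changed. The GC bins, correlations, exon features and count ratios were not recomputed. No member event was called under any filter, the constant dispersion prior or any left-out library (0 to 0 in each table). Limma on the log2 odds called 1 member event after FUBP1 depletion, that of VPS8. The count of member genes called by level went from 4 to 3 with median-of-ratios scaling (SNX5 lost), to 2 with the mean over all events and to 0 to 2 with 1 library left out after FUBP1 depletion. SNX4 lost its call without any 1 of 6 libraries, SNX5 without siCtrl2 1 or 3 or siFUBP1 1 or 2, VPS35 without siCtrl2 2 or 3 or siFUBP1 2 or 3, and VPS8 without siCtrl2 1, 2 or 3 or siFUBP1 2. The VPS8 value ran from -2.57 to 0.62, the latter without siCtrl2 library 2. After U3 depletion the count went from 18 to 9 with median-of-ratios scaling, and to 15 to 20 with 1 library left out. The count with the mean over all events is not given here for this depletion. Under scaling to the total, SNX1, SNX7, SNX9, SNX21, VPS11, VPS13C, VPS37A, VPS39 and VPS54 each lost the call without at least 1 single library. After FBL depletion it went from 1 to 0 with median-of-ratios scaling and with the mean over all events, and to 0 to 1 with 1 library left out, where siFBL library 2 was the one that could be left out with the call kept. The number of members with a different RIP enrichment went from 8 to 5 with no minimum count, where 63 members were tested, and SNX16, SNX6 and VPS37D lost their calls. The causes were not tested. Among uncalled SNX5 exon events, leaving out 1 library changed the sign of some differences, which ran from -0.00495 to 0.00875, -0.0247 to 0.129 and -0.0370 to 0.00723 (siFUBP1), from -0.00645 to 0.00432, -0.00256 to 0.00618, -0.00152 to 0.000499, -0.0134 to 0.0169, -0.0101 to 0.00286 and -0.0187 to 0.00661 (U3) and from -0.162 to 0.0133, -0.00367 to 0.0415 and -0.100 to 0.00482 (FBL).

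No paired analysis was possible because the lists of reads carry no library number (numbers given here are places in those lists), so the replicate block was not run. Depth limits the FBL table most, with fewer events tested and 2 libraries per group, and the RIP table gives no value per library.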
